A study of Mus musculus with 2 samples.

Results

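The barcodes described here are T cells of MB49 tumours that carried transcripts of dividing cells, chosen by their measured Mki67 and Top2a counts. A barcode, which tags the RNA of 1 droplet, was a member when it held at least 1 unique molecular identifier (UMI, 1 counted transcript) of the T cell gene Cd3e, at least 2 UMIs of Mki67 and at least 2 of Top2a. It also had to hold 0 UMIs of the regulatory T cell gene Foxp3, fewer than 10 UMIs of the class II genes H2-Aa, H2-Ab1 and H2-Eb1 together, and less than 500 CPM (UMIs per 1000000 of the barcode or sum) of Krt8 plus Krt18, genes of epithelial cells. No upper limit on UMIs was set. The rule kept 290 barcodes of the female library and 190 of the male library, 480 of the 6987 barcodes that passed a quality limit (500 or more genes, no more than 10% mitochondrial UMIs), out of 7366 deposited.

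MB49 is a mouse bladder carcinoma line. Tumours were taken at day 14 from C57BL/6J mice aged 12 to 14 weeks, digested with collagenase and sorted; 1 library came from males and 1 from females, and the labels name no treatment. The labels describe sorted viable CD4+ cells and a 5′ droplet kit, and do not say how many animals went into each library. With 1 library per sex there was no replicate, so every comparison below is between libraries or between barcodes of a library, without a test, and the intervals (exact, 95%) cover counting error only.

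The libraries went against the sort label. Of barcodes passing the T cell limits of the rule, 78.9% of 2629 female and 76.0% of 2314 male ones held at least 2 UMIs of Cd8a plus Cd8b1 and no Cd4, and are called Cd8-only here. The female library held 55880364 UMIs and the male one 50946624. The libraries shared 16 barcode sequences, none of them a member.

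T cells that meet their antigen leave rest, copy their DNA in S phase and divide after G2 and M phase. Mki67 encodes the Ki-67 protein of dividing cells, Top2a untangles the copied DNA, Birc5 (survivin) serves in chromosome segregation, Pclaf binds the replication clamp PCNA, and Rrm2 is the small subunit of ribonucleotide reductase, which makes the building blocks of DNA. In tumours, CD8 T cells that divide often carry inhibitory receptors such as PD-1, while self-renewing cells are known by the transcription factor TCF-1, the product of Tcf7.

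All 5 markers were present in the barcodes. Mki67 and Top2a chose them, so their levels are a description. In Cd8-only members Mki67 stood at 296 CPM (female) and 300.4 CPM (male), and Top2a at 366 and 367 CPM. Birc5 stood at 259 and 300.4 CPM against 6.22 and 6.67 CPM in the Cd8-only barcodes without Mki67, which serve as the comparison throughout (1607 female and 1417 male barcodes). Pclaf stood at 497 and 505 CPM against 18.1 and 13.5 CPM, and Rrm2 at 237 and 260 CPM against 9.86 and 7.83 CPM. The 3 markers that the rule did not use were thus high in both libraries.

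The members' limit of 2 UMIs fell on a slope. Barcodes that met the other limits and held 1 UMI of the scarcer of Mki67 and Top2a numbered 92 (female) and 68 (male), with Pclaf at 176 and 162 CPM. Those just inside, with 2 UMIs, numbered 37 and 27, with Pclaf at 251 and 320 CPM. Most members lay further in: 186 and 107 held 6 or more of both, and the median of the scarcer gene was 7.5 and 6 UMIs.

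The other limits removed many dividing barcodes. Among kept barcodes with at least 2 UMIs of both genes, 483 female and 392 male, Foxp3 was present in 172 and 189, class II transcripts reached the limit in 29 and 38, keratins in 15 and 6, and Cd3e was absent from 12 and 7.

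Members were deep. Female members had a median of 31275.5 UMIs and male members of 28920.5, against 8713 and 7981 in Cd8-only barcodes without Mki67. Above 30000 UMIs lay 151 of the 290 female and 93 of the 190 male members. A rule with fixed UMI counts finds more members among deep barcodes. As counted, 8.36% (7.46 to 9.33) of female and 5.40% (4.68 to 6.2) of male kept barcodes met it. Kept barcodes of at least 5000 UMIs were also thinned to 5000, and 3.34% and 2.57% of these met it. Barcodes under 5000 UMIs were left out of the thinned shares, so the denominators differ. The female share was the higher one both ways.

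Most members carried transcripts of the CD8 lineage. The rule had removed dividing barcodes with Foxp3, so this describes the members and not all dividing T cells of the libraries. Cd8a and Cd8b1 encode the 2 chains of the CD8 co-receptor of killer T cells, and Cd4 the co-receptor of helper T cells. Cd8-only barcodes made up 256 of 290 female members (88.3%, 84.0 to 91.7) and 169 of 190 male members (88.9%, 83.6 to 93.0). Both Cd4 and Cd8 transcripts were present in 29 and 17, Cd4 alone in 3 and 2, and neither in 2 and 2. Summed over members, Cd8a plus Cd8b1 reached 1395 CPM in female and 1422 CPM in male members, and Cd4 reached 8.99 and 7.40 CPM. The median member held 42.5 UMIs of the Cd8 genes in each library. Cd4-only members were thus few, while Cd4-only barcodes were 9.62% and 10.2% of T cell barcodes.

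Depth bears on that contrast. Of Cd8-only T cell barcodes, 12.3% of female and 9.61% of male ones were members, but the share was 0.5% and 0.802% under 10000 UMIs, 7.52% and 8.27% from 10000 to 20000, 36.7% and 30.9% from 20000 to 30000, and 64.1% and 60.5% above. Cd4-only barcodes were mostly shallow. Under 10000 UMIs 0 of 222 female and 0 of 210 male ones were members, which allows shares of up to 1.65% and 1.74%. From 10000 to 20000 UMIs the members were 1 of 28 and 2 of 25 (3.57%, 0.0904 to 18.3, and 8%, 0.984 to 26.0), intervals that include the Cd8-only shares at the same depth. A lower dividing share in Cd4-only than in Cd8-only barcodes was therefore not detectable at matched depth.

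The number of beta-chain V segments per barcode was counted as a measure of droplets with more than 1 cell. A T cell usually transcribes 1 rearranged Trbv segment, and a segment counted when it had at least 2 UMIs. In the female library 105 of 290 members held exactly 1 segment and 183 held 2 or more (63.1%, 57.3 to 68.7), with 10 as the highest number. In the male library 74 of 190 held exactly 1 and 107 held 2 or more (56.3%, 48.9 to 63.5), with 9 as the highest. Cd8-only barcodes without Mki67 held 2 or more in 30.8% and 31.0%. The members counted here are of every lineage. In the female library the Cd8-only members alone gave 60.9% (54.7 to 67.0).

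At equal depth the order turned. From 20000 to 30000 UMIs, 39 of 79 female members (49.4%, 37.9 to 60.9) and 16 of 43 male members (37.2%, 23.0 to 53.3) held 2 or more segments. In the comparison barcodes of that depth the share was 68.4% (58.1 to 77.6) and 72.9% (60.9 to 82.8), above the members in both libraries. From 10000 to 20000 UMIs the shares lay close: 42.6% and 40.9% in members, 40.6% and 44.5% in the comparison. Weighted to the UMIs of the members, the comparison barcodes came to 70.7% and 69.6%, and the members in the same UMI bins to 58.4% and 53.6%. Alpha-chain segments (Trav) gave 59.3% and 59.6% against 55.7% and 44.7% by the same weighting.

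**Figure D1:**
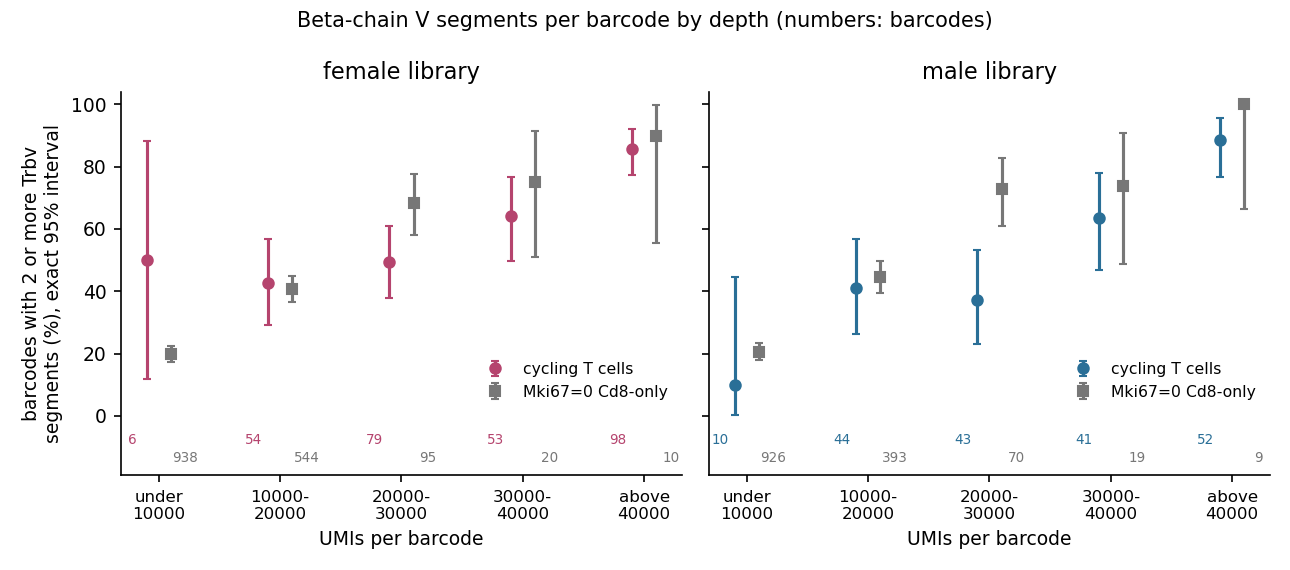
Share of barcodes with at least 2 Trbv segments (percent, bars are exact 95% intervals) by UMIs per barcode, in cycling T cells (circles) and Cd8-only barcodes without Mki67 (squares), with the number of barcodes below. The share climbs with depth in both classes, and from 20000 to 30000 UMIs the members lie at 49.4% and 37.2%, below 68.4% and 72.9%.

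Members with both co-receptors held the most segments. Of these, 26 of 29 female and 15 of 17 male barcodes held 2 or more segments, close to the 84.5% and 84.3% of barcodes with both Foxp3 and Cd8 transcripts. Their leading segment took a median of 42.0% and 55.6% of the Trbv UMIs, where at least 5 were present, against 84.6% and 87.8% in Cd8-only members and 95.8% and 92.7% in Cd8-only barcodes without Mki67. Cd4 in these barcodes was low, with a median of 2 UMIs, and 10 of the 29 and 8 of the 17 held 1. They were also deep, with medians of 55830 and 49985 UMIs, so depth and additional cells cannot be told apart here. The members with exactly 1 segment give the same lineage picture: 98 of 105 and 71 of 74 were Cd8-only.

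Among those 98 and 71 single-segment Cd8-only members a few segments were frequent. Trbv20 was held by 25 of 98 in the female library (25.5%, 17.2 to 35.3), against 11.2% (9.31 to 13.3) of the 1010 single-segment barcodes without Mki67, and by 3 of 71 in the male library (4.23%), against 2.52% of 872 there. Trbv20 was thus more frequent in the female library without Mki67 as well. Trbv1 was held by 20 of 71 in the male library (28.2%, 18.1 to 40.1; comparison 13.4%) and Trbv5 by 18 of 71 (25.4%, 15.8 to 37.1; comparison 11.1%). In the female library those 2 segments were held by 8 and 6 of 98. Trbv12-1 was held by 6.12% and 7.04% of members against 16.9% and 15.9% of the comparison. These 4 segments were singled out after their values were seen. Barcodes that share a segment can be 1 clone or several, which segment counts alone cannot tell apart.

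Cycle phase was read as the share of G2/M transcripts among those of an S and a G2/M list, both without Mki67 and Top2a. Summed over members it was 66.5% (female) and 68.3% (male), against 59.4% and 61.3% in Cd8-only barcodes without Mki67. Mki67 and Top2a, which chose the members, rose with this share among members in both libraries. That contrast therefore describes the choice as well, and leaving both genes out of the lists does not undo it. Per barcode the share ran from 45.0% at the 10th percentile to 84.9% at the 90th in the female library and from 45.1% to 87.2% in the male, with medians of 66.2% and 65.3%. Members of both libraries were ranked together into 3 equal ranges of 160, with edges at 58.5% and 73.6%. Within 2 points of the edges lay 42 and 45 barcodes, so these are ranges of a continuous score. The low range held 105 of 290 female members (36.2%, 30.7 to 42.0) and 55 of 190 male members (28.9%, 22.6 to 36.0), and the intervals overlapped.

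Genes that were in neither list followed the order of the cycle. Ccne1, the cyclin of S phase entry, stood at 41.1, 29.1 and 7.2 CPM in the low, middle and high range of the female library and at 43.3, 39.2 and 16.8 CPM in the male. Plk1, a mitotic kinase, ran the other way, from 14.9 over 25.6 to 62.9 CPM and from 19.3 over 32.5 to 92.6 CPM. Ccnb1, the cyclin of mitotic entry, stood at 19.5, 32.2 and 110.0 CPM and at 23.5, 30.0 and 122 CPM. Ccna2, which acts from S phase to early mitosis, was less spread, from 94.2 to 185 CPM and from 102 to 238 CPM. Listed genes entered the score, so their order is a description: Cdc20, which starts anaphase, went from 14.2 to 127 CPM in the female library, and Cdc6, which loads the replicative helicase, from 48.3 to 10.5 CPM.

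Histone transcripts changed less along the score than the cycle genes above, though the ranges differed beyond their intervals. The histone sum was 2915, 3675 and 3422 CPM in the female ranges and 3077, 3586 and 3875 CPM in the male ones. Replication-dependent histone genes make the packing proteins of new DNA, mostly during S phase. Pdcd1, the gene of PD-1, stood at 630, 523 and 557 CPM and at 507, 524 and 490 CPM. In the female library its low range lay above the others beyond the intervals. Lag3 was at 547, 580 and 510 CPM and at 586, 613 and 579 CPM.

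**Figure D2:**
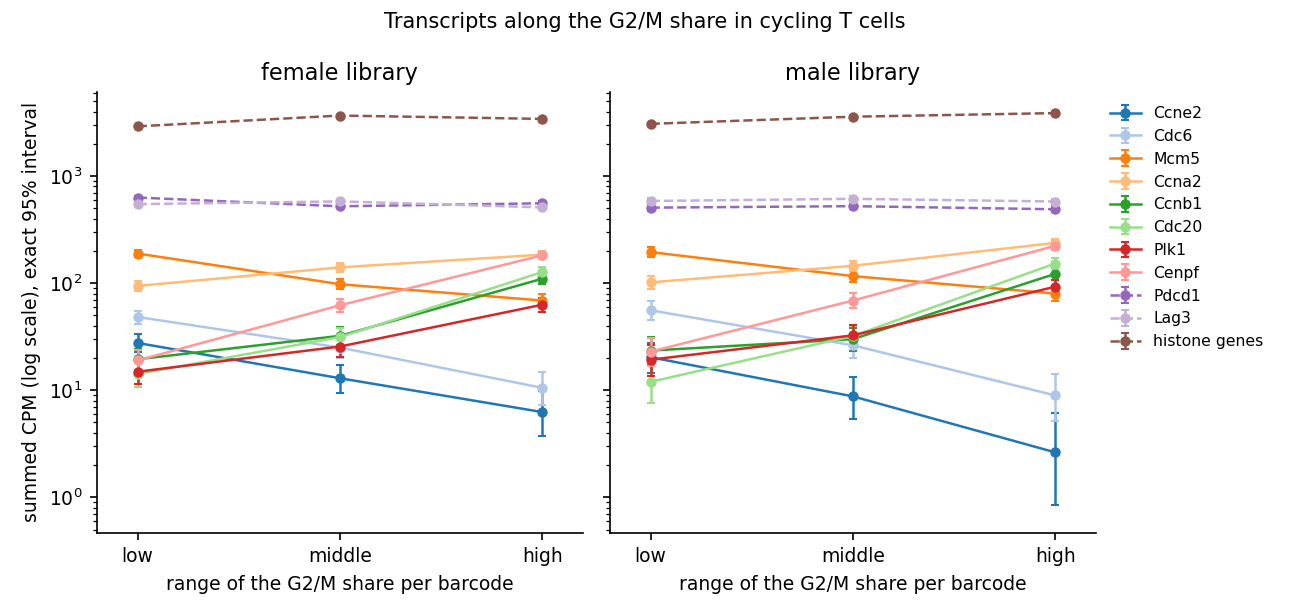
Summed CPM (log axis, bars are exact 95% intervals) in the low, middle and high range of the G2/M share for 8 cycle genes (solid lines) and for Pdcd1, Lag3 and the histone sum (dashed lines), per library. Cdc20 runs from 14.2 to 127 CPM in the female library, Ccne2 and Cdc6 run the other way, and Pdcd1 stays between 490 and 630 CPM in both libraries.

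Depth and segments were not equal across the ranges. The median UMIs were 35220, 31258 and 27929 in the female ranges and 29081, 32517 and 26444 in the male. At least 2 Trbv segments were found in 62.9%, 68.8% and 57.6% and in 58.2%, 65.7% and 45.6%. Their part in the levels above was not tested.

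Next, UMIs were summed over the 256 female and 169 male Cd8-only members and compared with the sums of Cd8-only barcodes without Mki67. A gene was called higher or lower when its CPM differed at least 1.5-fold in the same direction in both libraries. Of 8094 measured genes 968 were higher (12%) and 551 lower (6.81%). The rule of membership used this same contrast, so the counts below describe the members and support nothing. Over all measured genes the median log2 ratio was 0.00 (female) and 0.05 (male).

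Nearly all measured cell cycle genes were higher. Of the S phase list 40 of 43 measured genes were higher, with median log2 ratios of 2.18 and 2.22, and of the G2/M list 48 of 50, with medians of 4.07 and 4.19. All 48 measured histone genes were higher, with medians of 3.05 and 3.20, though near-identical copies can share reads. Of 20 nucleotide synthesis genes 18 were higher, with medians of 1.45 and 1.43. None of the 4 lists had a gene called lower, and the few genes in neither class included Rpa2, Ubr7, Jpt1, G2e3, Umps and Gmps.

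In S phase the largest ratios belonged to E2f8, a repressor of late S phase, at 27.6 and 29.5 CPM against 0.299 and 0.290, a log2 ratio of 6.53 (5.29 to 8.16) and 6.67 (5.28 to 8.56). Clspn, which relays replication stress to the kinase CHK1, stood at 79.2 and 72.5 CPM against 4.36 and 3.26. Cdc6 stood at 31.7 and 31.6 CPM against 1.43 and 1.16. Mcm5, a helicase subunit, was less apart, at 132 and 132 CPM against 27.0 and 21.3. Without Mki67, Mcm5 had 452 and 293 UMIs in the sums and E2f8 had 5 and 4.

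In G2/M, Cenpf, a kinetochore protein, stood at 84.0 and 111 CPM against 1.08 and 0.580, a log2 ratio of 6.29 (5.62 to 7.05) and 7.58 (6.60 to 8.80). Hmmr, which acts at the spindle, stood at 41.8 and 56.7 CPM against 0.120 and 0.870. Nuf2 and Ttk, a kinetochore subunit and the kinase of the spindle checkpoint, stood at 25.7 and 28.7 CPM and at 13.4 and 17.9 CPM, against at most 0.418 CPM. The 12 genes furthest up outside the lists included Shcbp1 at 48.3 and 48.7 CPM against 0.299 and 0.580, Pbk, a mitotic kinase, at 26.7 and 28.4 against 0.179 and 0.145, and Esco2, which acetylates cohesin, at 39.5 and 45.3 against 0.478 and 0.363. Knl1 and Kif4, a kinetochore scaffold and a chromosome motor, followed at 61.2 and 66.8 CPM and at 39.2 and 48.0 CPM.

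The genes that make and pack new DNA were among them. Tk1, thymidine kinase, stood at 137 and 157 CPM against 13.1 and 11.0, and Tyms, which makes thymidylate, at 161 and 156 CPM against 21.6 and 16.4. Hist1h1b, a linker histone, stood at 259 and 271 CPM against 6.81 and 7.98, a log2 ratio of 5.25 and 5.09. All 3 were called higher in both libraries.

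Regulators of the cycle split. Of 27 measured cyclins, kinases and inhibitors 16 were higher and 3 lower. With the comparison barcodes weighted to the members' UMIs, 17 were higher and 1 lower. Plk1 (34.5 and 50.3 CPM against 0.359 and 0.653) and Ccna2 (148 and 171 against 1.73 and 2.39) were furthest up. Foxm1 and Mybl2, transcription factors that drive late cycle genes, stood at 24.4 and 28.2 CPM and at 36.3 and 36.2 CPM, against at most 2.39. The 3 lower genes all restrain division: Cdkn1b (p27), at 65.5 and 66.1 CPM against 116 and 117, and Btg1 and Btg2, of which Btg1 stood at 394 and 397 CPM against 873 and 973. The D cyclin Ccnd2, which acts in G1, was at 71.2 and 65.7 CPM against 104.5 and 108.5 and was not called.

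The promoters of these genes are shown because the genes move together and because motifs of their known regulators can be read in them. Each sequence is the 250 bases before the RefSeq start of the gene, on the gene's strand, from GRCm38.p6. Capitals mark matches to 3 motifs on either strand. The letters TTTGAA form the cell cycle homology region, which complexes of late cycle genes bind. The CCAAT box is bound by NF-Y and reads ATTGG on the opposite strand. The E2F site, which serves genes of S phase entry, was searched as TTCCCGC, in a second form as TTCGCGC, in a further form as TTGCCGC, and lastly in the form TTGGCGC, which ATTGG can overlap. Mki67 and Top2a are the genes of the rule, Hmmr and Cdc6 stand for the G2/M and the S list, and Birc5 and Rrm2 show how far markers differ.
Mki67: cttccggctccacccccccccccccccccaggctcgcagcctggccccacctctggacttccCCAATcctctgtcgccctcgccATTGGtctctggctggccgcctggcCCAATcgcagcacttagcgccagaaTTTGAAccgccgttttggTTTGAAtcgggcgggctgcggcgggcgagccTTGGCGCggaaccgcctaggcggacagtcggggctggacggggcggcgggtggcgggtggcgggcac
Top2a: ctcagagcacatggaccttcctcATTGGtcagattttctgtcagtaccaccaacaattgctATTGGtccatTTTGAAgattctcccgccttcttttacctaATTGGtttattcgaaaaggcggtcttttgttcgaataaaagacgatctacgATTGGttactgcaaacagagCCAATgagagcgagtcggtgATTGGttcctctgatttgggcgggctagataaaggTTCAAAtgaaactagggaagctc
Birc5: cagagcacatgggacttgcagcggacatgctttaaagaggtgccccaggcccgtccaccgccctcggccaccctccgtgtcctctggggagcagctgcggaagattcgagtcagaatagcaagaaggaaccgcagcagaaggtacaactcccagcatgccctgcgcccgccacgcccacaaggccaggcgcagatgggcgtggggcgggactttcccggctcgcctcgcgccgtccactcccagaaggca
Rrm2: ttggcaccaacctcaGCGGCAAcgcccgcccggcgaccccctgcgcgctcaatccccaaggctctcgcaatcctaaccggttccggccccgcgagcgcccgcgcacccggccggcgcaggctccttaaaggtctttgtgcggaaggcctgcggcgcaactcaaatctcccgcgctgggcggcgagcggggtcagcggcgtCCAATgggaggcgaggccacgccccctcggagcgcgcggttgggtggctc
Hmmr: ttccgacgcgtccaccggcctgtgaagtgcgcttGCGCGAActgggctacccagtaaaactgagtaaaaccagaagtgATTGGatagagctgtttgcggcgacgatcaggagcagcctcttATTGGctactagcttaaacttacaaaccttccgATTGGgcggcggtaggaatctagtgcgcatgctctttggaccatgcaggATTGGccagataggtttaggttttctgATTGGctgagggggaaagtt
Cdc6: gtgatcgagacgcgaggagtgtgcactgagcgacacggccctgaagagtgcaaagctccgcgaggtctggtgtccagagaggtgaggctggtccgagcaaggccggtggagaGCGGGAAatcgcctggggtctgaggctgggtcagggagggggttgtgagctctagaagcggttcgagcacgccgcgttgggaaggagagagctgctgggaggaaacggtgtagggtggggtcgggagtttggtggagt
The window of Mki67 (chr7:135716380-135716629, minus strand) held 2 TTTGAA matches, 3 CCAAT and 1 E2F match. That of Top2a (chr11:99024190-99024439, minus strand) held 2 TTTGAA and 6 CCAAT matches, and that of Hmmr (chr11:40733438-40733687, minus strand) 5 CCAAT and 1 E2F match. Rrm2 (chr12:24708004-24708253, plus strand) had 1 CCAAT and 1 E2F match and Cdc6 (chr11:98907901-98908150, plus strand) 1 E2F match. Birc5 (chr11:117848987-117849236, plus strand) had none in this window.

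Over the lists, TTTGAA was found in 17 of 45 matched G2/M promoters (37.8%) and in 5 of 31 S phase promoters (16.1%), with 16.3% of all 27025 promoters. E2F letters were found in 16 of 31 S phase promoters (51.6%) and 7 of 45 G2/M promoters (15.6%), with 7.97% of all. CCAAT was found in 71.0% of S phase and 75.6% of G2/M promoters, with 34.5% of all. Of the 11 checkpoint receptor promoters 2 held TTTGAA, 2 CCAAT and 0 E2F letters. A match describes letters in a window and is not a bound site.

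**Figure D3:**
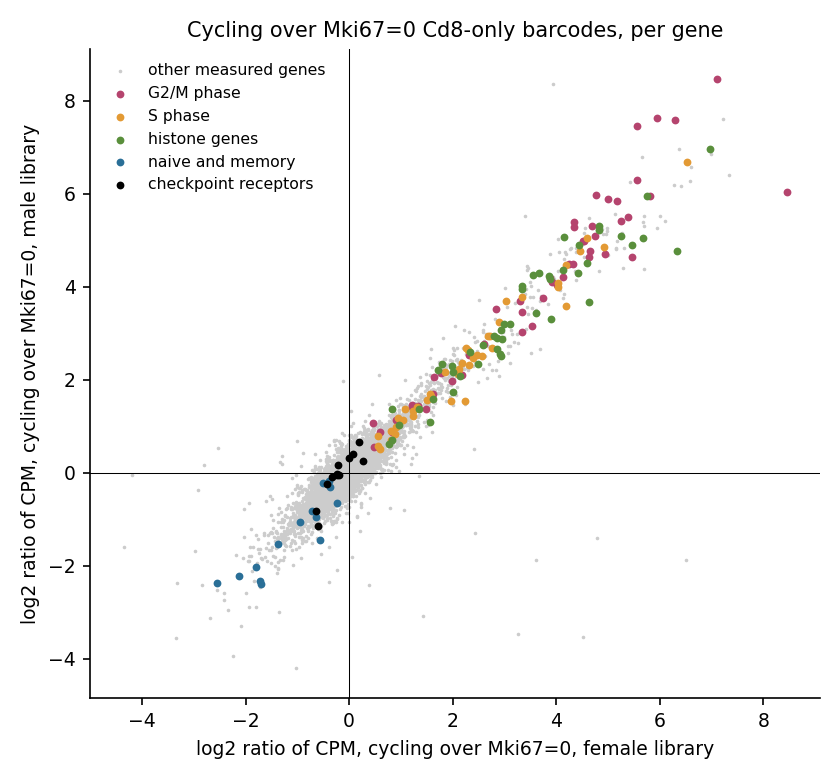
Log2 ratio of CPM of each measured gene, Cd8-only members over Cd8-only barcodes without Mki67, in the female (x axis) and male library (y axis), for 8085 genes with UMIs in both comparison sums. The G2/M, S phase and histone genes run up the diagonal, the checkpoint receptors lie near 0 (medians -0.22 and -0.04) and the naive and memory genes below it (medians -0.83 and -1.26).

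In summed CPM most inhibitory receptors of dividing barcodes were within 1.5-fold of the Mki67-negative barcodes. Of 12 measured receptors 0 were called higher and 2 lower, Vsir and Cd101, and the median log2 ratio was -0.22 (female) and -0.04 (male). That median depended on the weighting and limits. It was -0.06 and 0.19 with barcodes weighted equally, and -0.37 and -0.25 from 10000 to 30000 UMIs with 1 Trbv segment. Of all measured genes 12% were called higher and 6.81% lower. Pdcd1 stood at 593 and 519 CPM in members against 702 and 540 CPM, a log2 ratio of -0.24 (-0.29 to -0.19) and -0.06 (-0.12 to 0.01). Lag3, a receptor for class II molecules, stood at 570 and 594 CPM against 671 and 607. Ctla4, which competes for B7 ligands, stood at 322 and 349 CPM against 367 and 362. Tigit stood at 250 and 236 CPM against 313 and 253, and Havcr2, the gene of TIM-3, at 144 and 190 CPM against 167 and 169. None of these 5 genes reached the 1.5-fold limit in either library, and only Havcr2 had opposite signs in the libraries.

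Smaller receptors did not share 1 direction. Entpd1 (CD39), at 67.2 and 67.6 CPM against 63.5 and 51.6, and Cd160, at 95.4 and 115 against 95.8 and 92.2, were above the comparison beyond their intervals in the male library only, as was Cd244a, at 14.5 and 17.9 CPM against 12.7 and 11.3. Cd200 stood at 20.8 and 13.7 CPM against 17.3 and 11.5, and Klrg1 at 11.6 and 13.5 against 15.6 and 16. Btla did not pass the limit on low counts, at 5.14 and 5.33 CPM. Vsir (VISTA) stood at 50.3 and 47.2 CPM against 78.8 and 84.1, and Cd101 at 15.1 and 12.8 against 22.8 and 28.3. Only those 2 were lower by 1.5-fold in both libraries. With the comparison barcodes weighted to the members' UMIs, 0 of 12 receptors were called lower. Up to 30000 UMIs it was also 0 of 12.

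**Figure D4:**
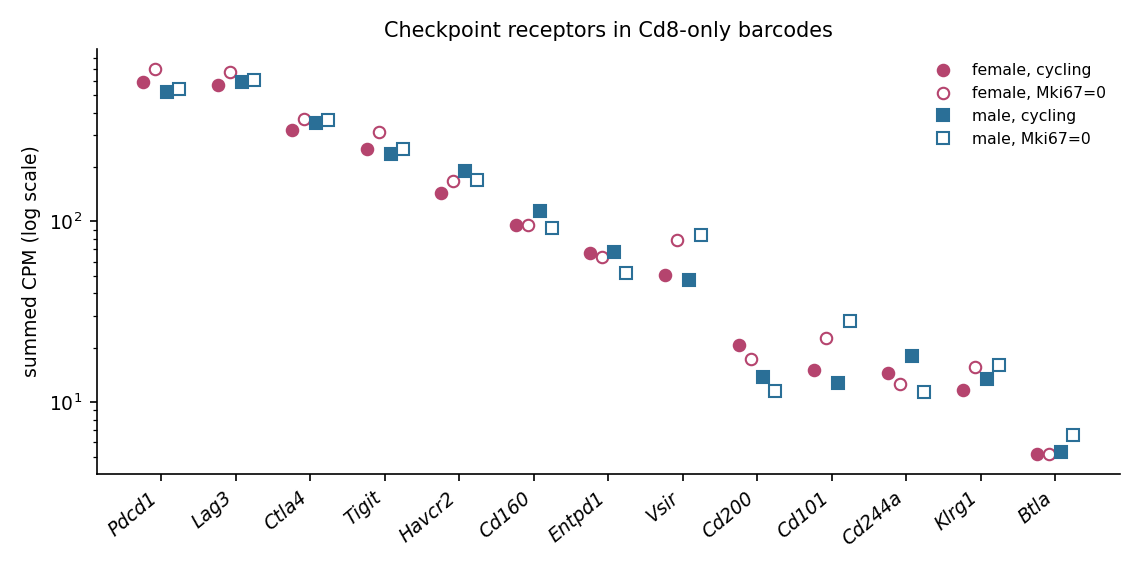
Summed CPM (log axis) of 13 checkpoint receptors in Cd8-only barcodes, cycling (filled) and without Mki67 (open), female (circles) and male (squares). Filled and open symbols nearly coincide for Pdcd1, Lag3, Ctla4 and Tigit, while Vsir and Cd101 are lower when filled in both libraries.

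For Pdcd1, Lag3, Ctla4 and Tigit the share of barcodes with a UMI, at thinned depth, ran against the sums in both libraries. After thinning to 5000 UMIs, Pdcd1 was found in 85.9% of female and 80.6% of male members (255 and 166 barcodes). Without Mki67 it was found in 69.4% and 59.4% (1373 and 1145 barcodes). Barcodes under 5000 UMIs, 234 and 272 of the comparison, were left out. Lag3 was found in 84.6% and 82.3% against 66.0% and 57.1%. Without thinning the Pdcd1 shares were 94.5% and 92.3% against 71.8% and 62.0%, at median depths of 29689.5 and 27537 against 8713 and 7981 UMIs. Keratin-positive barcodes, at median depths of 47553 and 40598 UMIs, held Pdcd1 in 0 of 31 and 0 of 27 and Lag3 in 2 of each. Since these shares go against the CPM, no order was read from them. The 2 receptors called lower had lower shares, from which no order was read either. Thinned Vsir was found in 22.0% and 20.8% of members against 31.1% and 32.7%, and Cd101 in 7.21% and 5.99% against 11.9% and 12.9%. Tigit was found in 66.4% and 61.4% against 65.4% and 54.7%, and Ctla4 in 68.6% and 69.9% against 63.6% and 57.6%. In the female library Havcr2 (46.8% against 40.2%) and Cd160 (32.1% against 27.0%) ran against their sums as well.

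Genes of resting and recirculating cells were lower in the summed CPM of members. Of 14 naive and memory genes 9 were lower and 0 higher, beside 6.81% of all measured genes lower, with median log2 ratios of -0.83 and -1.26. With the comparison barcodes weighted to the members' UMIs, 4 of 14 were called lower. From 10000 to 30000 UMIs with 1 Trbv segment it was 3 of 14. S1pr1, which lets T cells leave tissue, stood at 10.6 and 16 CPM against 62.3 and 83.3, a log2 ratio of -2.55 (-2.87 to -2.25) and -2.38 (-2.72 to -2.06). Klf2, which sustains S1pr1, stood at 77.0 and 156 CPM against 266 and 637. Cxcr3, a receptor for interferon-induced chemokines, stood at 14.1 and 17.3 CPM against 61.7 and 81.3. Il7r, the receptor of the survival cytokine IL-7, stood at 125 and 134 CPM against 196 and 261. Klf3, Ly6c2, Ifitm1 and Satb1 were also lower.

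Some stem-like factors were lower in sum as well. Of 14 exhaustion and stemness factors 5 were lower and 0 higher: Tcf7, Lef1, Id3, Bach2 and Slamf6. Of all measured genes 6.81% were lower. With the comparison barcodes weighted to the members' UMIs, 1 of 14 was called lower, beside 138 of 8178 measured genes. Tcf7 stood at 21 and 33.7 CPM against 76.9 and 147, a log2 ratio of -1.87 (-2.10 to -1.65) and -2.12 (-2.35 to -1.90). Bach2, a repressor that holds T cells in a resting state, stood at 82.6 and 67.0 CPM against 149 and 141, and Slamf6 at 9.50 and 21.1 against 27.1 and 39.6. Tox, the factor of exhaustion, stood at 90.1 and 115 CPM against 80.7 and 83.6 and was not called.

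Among the 12 lowest genes outside those lists was Tgtp1, an interferon-induced GTPase, at 2.23 and 2.67 CPM against 22.8 and 31.4. Cd7, a surface protein of T and natural killer cells, stood at 16.3 and 25.3 CPM against 95.2 and 145, and Tcp11l2 at 15.0 and 13.5 against 80.2 and 81.5. All 3 kept their sign at matched UMIs, with log2 ratios of -2.60 and -1.99 for Tgtp1, -0.57 and -1.13 for Cd7, and -1.50 and -2.11 for Tcp11l2.

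These ratios changed when depth was matched, which leaned on few deep comparison barcodes. Above 30000 UMIs lay 30 female and 28 male ones, against 127 and 78 Cd8-only members. Most comparison barcodes so weighted held 2 or more Trbv segments, so depth and additional cells cannot be told apart. With the comparison barcodes weighted to the UMIs of the members, the naive and memory medians were -0.52 and -0.57, the exhaustion and stemness medians 0.01 and 0.05, and S1pr1 stood at -0.05 and -0.72. Tcf7 stood at -0.33 and -1.32 and Klf2 at -0.59 and -0.80, still below 0 in both libraries. A comparison among barcodes of 10000 to 30000 UMIs with exactly 1 Trbv segment was added after seeing the data (65 and 46 members). There Tcf7 stood at -1.47 and -1.92, and Klf2 turned sign in the female library only, at 0.67. The naive and memory medians were -0.54 and -0.45 there, and the exhaustion and stemness medians -0.08 and 0.09. Of the 551 lower genes 67 were called lower under the UMI weighting, whereas 626 of the 968 higher genes were called higher. The S and G2/M medians remained at 1.55 and 1.75 and at 3.62 and 3.37, and the checkpoint medians at -0.24 and -0.06.

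Killing genes differed one by one. Of 16 cytotoxic genes 1 was higher, Gzmc, and 1 lower, Ccl5, beside 12% and 6.81% of all measured genes. Granzyme C stood at 363 and 498 CPM against 171 and 230, but at matched UMIs its log2 ratio was 0.24 (female) and -1.20 (male). Ccl5, a chemokine stored by effector cells, stood at 2316 and 1774 CPM against 7107.5 and 6213.5, a log2 ratio of -1.62 (-1.64 to -1.60) and -1.81 (-1.84 to -1.78), and at -0.54 and -0.89 at matched UMIs. Gzmb, the main granzyme, stood at 2216 and 2730 CPM against 1839 and 1842. Gzma stood at 394 and 512 CPM against 905 and 723, and Fasl at 77.1 and 92.7 against 143 and 135. Gzmb and Gzma did not reach the limit in both libraries.

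Of 13 residency and homing genes 6 were lower and 0 higher, and at matched UMIs 1 of 12 was called lower. Among all measured genes 6.81% were lower as counted, and 138 of 8178 at matched UMIs. Itgb7, an integrin chain of mucosal homing, stood at 45.6 and 58.4 CPM against 131 and 145, and Ccr2, a receptor for inflammatory chemokines, at 22.2 and 23.0 against 51.2 and 54.4. Itgae (CD103) stood at 0.782 and 7.23 CPM against 16 and 21.8. Ccr8 stood at 50.7 and 36.7 CPM against 79.6 and 61.2 and, unlike Itgae and Ccr2 in the male library and Cxcr4 in the female, kept its sign at matched UMIs, at -0.88 and -0.89. Of 8 costimulatory receptors only Cd28 was called, at 187 and 194 CPM against 287 and 303, and 0 of 8 at matched UMIs. Tnfrsf9 (4-1BB) stood at 771 and 727 CPM against 679 and 500.3.

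Early response genes were lower in sum. Of 13 genes of T cell receptor activation 5 were lower and 0 higher. They were Cd69, an early surface marker (88.1 and 113 CPM against 201 and 266), and 4 genes that signalling induces, Dusp2, Nfkbid, Tnfaip3 and Zfp36. At matched UMIs the list's median was -0.25 (female) and 0.33 (male), and 1 gene was called lower. Nfkbid turned sign in both libraries, at 0.45 and 0.38, while the others stayed below 0: Dusp2 at -0.36 and -0.34, Zfp36 at -0.81 and -0.59, Tnfaip3 at -0.48 and -0.16 and Cd69 at -0.082 and -0.40. Beside 6.81% of all measured genes, 2 of 17 genes of dissociation stress were lower, Fos (80.8 and 111 CPM against 174 and 242) and Ier2. Of 10 measured type I interferon response genes 6 were lower, with medians of -0.62 and -0.66, and at matched UMIs of 0.15 and -0.22. Of 9 cytokine and chemokine genes only Tnf was lower, at 13.0 and 21.3 CPM against 29.1 and 45.3.

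Energy metabolism was slightly higher in sum, with no larger share of genes called higher than the 12% of all measured genes. Glycolysis genes had medians of 0.32 and 0.30 with 1 of 15 called (Tpi1, triosephosphate isomerase), and respiratory chain genes 0.37 and 0.40 with 2 of 19 called, Cycs (cytochrome c; 392 and 385 CPM against 231 and 207) and Ndufc1, a complex I subunit. Ldha stood at 2224 and 2087 CPM against 1497.5 and 1362.5. At matched UMIs the glycolysis medians were -0.02 and -0.31 and the respiratory ones 0.14 and 0.28.

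Dividing CD8 cells of the 2 libraries differed less in the medians of cycle lists than in that of cytokines and chemokines. Of 7744 genes measured in the Cd8-only members the female library had 86 higher by 1.5-fold or more (1.11%) and 137 lower to that degree (1.77%). With 1 library per sex, sex and library cannot be told apart. None of the 5 rule markers was called. The S, G2/M and histone lists had medians of 0.02, -0.16 and -0.10 with 1, 0 and 1 genes higher. Lower were 0 of 43, 2 of 50 and 3 of 48 of their genes, beside 1.77% of all measured genes. The cyclins, kinases and inhibitors had a median of -0.18, with 0 of 27 higher and 2 lower. The checkpoint median was -0.03.

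Ccl4 and Ccl3, chemokines that activated CD8 cells release, were the plainest difference. Ccl4 stood at 200.4 CPM in female and 995 CPM in male members, a log2 ratio of -2.31 (-2.39 to -2.23). In Cd8-only barcodes without Mki67 it stood at 508 and 843 CPM (-0.73), so within the female library members lay below the comparison and within the male library above it. Single barcodes held 15% of the female and 33% of the male Ccl4 UMIs of members, so the male order rested on a single barcode. Ccl3 stood at 136 and 376 CPM (-1.47, -1.58 to -1.37) against 160 and 267. Ifng followed at 189 and 316 CPM against 182 and 230. Of 8 measured cytokine and chemokine genes 5 were lower in the female members, with a list median of -0.69, and -0.49 without Mki67.

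The heat shock genes Hspa1b (64.0 and 178 CPM) and Hspa1a (61.0 and 136 CPM) were lower in the female members, with ratios of -1.47 and -1.16 beside -0.79 and -0.58 without Mki67. In the female library 1 barcode held 32% and 39% of their UMIs. Sgk1, a salt and hormone response kinase, stood at 17.9 and 40.5 CPM, and Klra3, a receptor of the Ly49 family, whose members are near copies of each other, at 6.48 and 22.1. Dscam stood at 26.5 and 67.2 CPM and Tff1 at 20.7 and 52.9. Among stem-like factors Slamf6 (9.50 and 21.1 CPM) and Id3 (3.69 and 12.0) were lower in the female members.

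Higher in the female members were Slc15a2, a peptide transporter (38.2 and 15.0 CPM; 1.35, 0.99 to 1.72), Pmepa1, a brake on TGF-beta signalling (72.7 and 37.3; 0.96), Sult2b1 (52.7 and 28.0; 0.91), Spp1, the gene of osteopontin (129 and 67.2; 0.94), and Fcer1g, a signalling adaptor (24.4 and 11.0; 1.14). Kdm6a, an X-linked gene that escapes X inactivation, stood at 46.2 and 25.5 CPM (0.86). Each was higher in the female library without Mki67 too, with ratios of 1.39, 0.62, 0.63, 0.82, 0.76 and 0.81. Gzmg and Sparc had the largest ratios, 3.09 and 3.78, and rested on few barcodes: 1 female barcode held 52% of the 1072 Gzmg UMIs and 1 held 50% of the 210 Sparc UMIs.

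**Figure D5:**
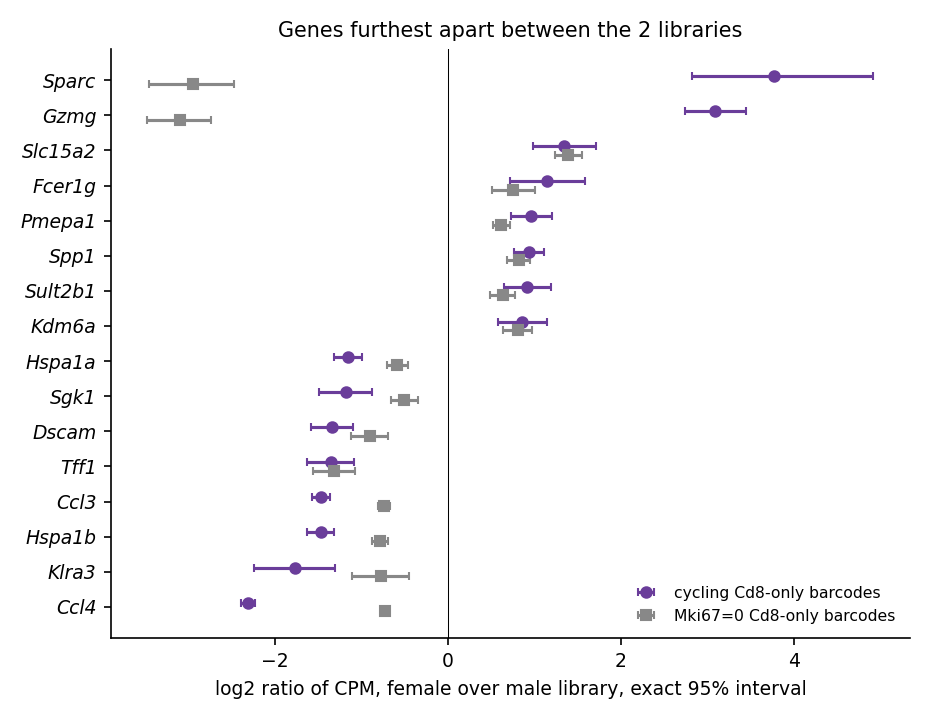
Log2 ratio of CPM, female over male library, of the 16 genes furthest apart in cycling Cd8-only barcodes (circles), with the same ratio in Cd8-only barcodes without Mki67 (squares); bars are exact 95% intervals. Ccl4, at -2.31 against -0.73, is further apart in cycling barcodes, Slc15a2 is equal in both, and Gzmg and Sparc have opposite signs.

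Markers of other cells were low in the members. The rule had limited H2-Aa, H2-Ab1, H2-Eb1, Krt8 and Krt18, so the low class II and epithelial sums describe that choice. The 5 general T cell genes summed to 3786 CPM in both libraries. Macrophage and monocyte genes summed to 14.5 CPM in female and 23.8 CPM in male members, with all 10 detected and Cd68 leading, against 23.9 and 26.8 without Mki67. Class II genes, led by Cd74, summed to 54.4 and 52.6 CPM against 35.1 and 80.0, with the dendritic genes Cd209a and Ccl22 at 0 in members. B cell genes summed to 14.6 and 18.2 CPM, led by Ighm, with Ms4a1 at 0, and endothelial genes to 17.3 and 18.2 CPM, led by Pecam1, with Cdh5 and Kdr at 0. Natural killer genes, which killer T cells share in part, summed to 136 and 143 CPM against 143 and 138. Epithelial genes were at 3.65 and 3.06 CPM, neutrophil genes at 0.187 and 0.483 CPM and erythroid genes at 0.187 and 0.322 CPM. These were traces beside the T cell genes. Fibroblast genes summed to 57.5 CPM in the female members, 41.2% of it in 1 barcode, and to 12.2 CPM in the male, 78.9% in 1 barcode, against 3.41 and 34.8 without Mki67. Sparc is a matrix gene that fibroblasts make, and their part in its ratio was not tested. Gamma-delta genes summed to 40.7 and 36.0 CPM, led by Trgv2, against 18.2 and 22.6, with Sox13 at 0. Of the 5 regulatory T cell genes Foxp3 was at 0 by the rule, and the others summed to 966 and 944 CPM, led by Tnfrsf4, which activated T cells also transcribe.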

How the data were processed

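Single-cell RNA of sorted tumour T cells was deposited as 2 matrices of UMI counts per gene and barcode. Per the file headers the authors made these counts with Cell Ranger 7.0.1, and the submitters' processing notes name GRCm38, Cell Ranger and Seurat 5. How the matrices were filtered is not given in the sources used here. Kept barcodes had 500 or more genes and no more than 10% mitochondrial UMIs. No doublet caller was run, and Trbv segments with at least 2 UMIs were counted instead. Counts were summed per library and class and divided by the summed total (CPM). Ratios have exact intervals for 2 Poisson counts and shares exact Clopper-Pearson intervals, at 95%. Genes counted as measured if 1 sum reached 10 CPM and all sums together 20 UMIs. Where the comparison held 0 UMIs, a floor of 3 counts was used. Matched values weight the comparison barcodes to the members' UMIs in bins of 0.5 log2 units. Thinning drew 5000 UMIs per barcode, 20 times for the share of members, and left out barcodes under 5000 UMIs.

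The members, gene lists and contrasts were chosen with earlier results of these data known. Named genes are the rule markers, Cd4, Cd8a and Cd8b1, all checkpoint receptors, up to 6 genes per other list with the largest ratios of 1 sign, the 12 highest and 12 lowest of all genes, and the 8 highest and 8 lowest between the libraries (at least 20 CPM and an interval bound of 1.25-fold, without cycle, nucleotide and histone genes, receptor and immunoglobulin segments, mitochondrial, ribosomal protein, predicted, X-inactivation and Y genes); other genes named were chosen after their values were seen. Promoters are from RefSeq. Some genes of the lists are not reported here. Python 3.11.15, numpy 2.4.6, scipy 1.17.1, pandas 2.3.3 and matplotlib 3.10.9 were used, and the contrast was tested on simulated data.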

Additional observations from a re-analysis of the deposited data

Results flagged for a closer look

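In 2 genes named between the libraries, cycling and Mki67-negative Cd8-only barcodes differed in opposite directions in the 2 libraries, each beyond its interval. Gzmg (granzyme G) had a log2 ratio of cycling over Mki67-negative of 4.78 (4.44 to 5.14) in the female library and of -1.41 (-1.78 to -1.06) in the male. Sparc, a matrix protein gene, had 3.26 (2.77 to 3.78) and -3.47 (-4.61 to -2.52). With 1 library per sex the difference between the ratios was not tested. A single barcode held 52% of the female and 57% of the male Gzmg UMIs of members, and for Sparc 50% and 100%.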

How the results depend on the processing

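No paired analysis was possible because each sex has 1 library, and for the same reason no replicate could be left out. Members were 11.0% and 7.33% of kept barcodes (female, male) when 1 UMI of Mki67 and Top2a was enough, and 6.55% and 4.15% from 4 UMIs. They were 4.67% and 3.17% up to 30000 UMIs. Of kept barcodes with at least 5000 UMIs, 3.34% and 2.57% were members when thinned to 5000. Cd8-only barcodes were 92.8% and 93.8% of members up to 30000 UMIs and 93.3% and 95.9% of those with 1 Trbv segment. Members with 2 or more segments were 46.8% and 36.1% up to 30000 UMIs, and in the female library 72.8% and 54.8% with a segment counted from 1 or 3 UMIs. The G2/M share was 65.3% and 67.5% from 1 UMI, 67.3% and 69.4% from 4, 68.0% and 69.9% up to 30000 UMIs, 67.5% and 71.2% with 1 segment, and 65.4% and 66.9% with barcodes weighted equally. The checkpoint median was -0.063 and 0.19 with equal weights.

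Without the limit on low counts 1600 genes were higher and 1254 lower in cycling barcodes, and 1173 higher and 2054 lower in the female members. At matched UMIs 138 genes were lower in cycling barcodes. Between the libraries, 268 genes were higher and 600 lower up to 30000 UMIs, 334 and 448 with 1 segment, and 315 lower with equal weights. A limit of 10000 to 30000 UMIs with 1 segment, and a comparison class without Top2a, were added after seeing the data. The former gave 309 lower genes and checkpoint medians of -0.37 and -0.25.

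Signs turned at matched UMIs in the female library for Cxcr4 (0.45), Fos (0.075), Id3 (0.38), Ifit1 (0.33), Ifit3 (0.71), Irf7 (0.037), Nfkbid (0.45), Rtp4 (0.43), Tnfsf11 (-0.22) and Zbp1 (0.16). In the male library they turned for Ccr2 (0.075), Gzmc (-1.20), Ifit3 (0.97), Itgae (0.83), Ldha (-0.088), Nfkbid (0.38) and Tpi1 (-0.12). Up to 30000 UMIs Xcl1 turned in the female library (-0.22). Under the added limit, female signs turned for Cd69 (0.092), Id3 (0.19), Ifit1 (1.71), Ifit3 (0.99), Klf2 (0.67), Lef1 (0.039), Nfkbid (0.73), Tnf (0.20) and Xcl1 (-0.40), and male signs for Ccr2 (0.14), Fos (0.43), Itgae (0.75), Jun (0.076) and Nfkbid (0.60). The causes were not tested. Of gene values under all alternatives, 1878 lay within the main interval, 942 moved beyond it and 32 called ones turned sign. Of Cd4-only barcodes, 1 of 28 and 2 of 25 were members at 10000 to 20000 UMIs, so depth limits what these libraries show of them.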
